A study of Homo sapiens with 22 samples.

Results

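The transcriptional response to 30 min of epidermal growth factor (EGF) was read in human lung fibroblasts, the IMR90 line, in which the kinase MSK2 had been knocked down. The 4 libraries of cells with MSK2 siRNA and 30 min of EGF were compared with the 4 libraries of cells with MSK2 siRNA given phosphate-buffered saline (PBS), 8 of the 22 RNA sequencing libraries of the series, each placed by its label. All cultures received 10 nM siRNA every 24 h over 72 h and had no serum for the last 24 h, and EGF was used at 750 pM. Set beside this comparison were cells with a control siRNA given PBS (4 libraries) or EGF for 30 min (4 libraries), and cells with MSK2 siRNA given EGF for 60 min (3 libraries). The labels give the PBS groups a time of 60 min, so handling time and EGF cannot be told apart. Every culture was of 1 cell line, and the labels do not say whether the libraries of a group came from separate cultures. The p-values therefore measure the spread between these libraries, which may be technical.

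EGF binds its receptor tyrosine kinase and activates the RAS-RAF-MEK-ERK cascade. ERK phosphorylates the ternary complex factors that work with serum response factor (SRF), and it activates the RSK and MSK kinases. MSK1 and MSK2 are nuclear kinases that phosphorylate the transcription factors CREB and ATF1 and serine 10 of histone H3. The genes that respond first, the immediate-early genes, need no new protein synthesis. They encode transcription factors such as FOS and EGR1 and the proteins that later switch signaling off. The comparison asks which of them respond when MSK2 is depleted.

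The knockdown was checked first. RPS6KA4, the gene of MSK2, had 2.50 ± 0.958 CPM (the counts of a gene scaled to the size of its library) with MSK2 siRNA and PBS and 20.3 ± 6.31 with control siRNA and PBS (SD, n = 4 each), 87.7% lower (2-sided exact permutation test, p = 0.029, the smallest that 4 against 4 allows). After 30 min of EGF it had 2.64 ± 0.402 and 18.4 ± 2.96 CPM, 85.6% lower (2-sided exact permutation test, n = 4 each, p = 0.029). EGF itself did not move RPS6KA4 past the threshold with MSK2 siRNA (log2 fold change 0.10 ± 0.28 SE, edgeR adjusted p = 0.921). RPS6KA5, the gene of the related kinase MSK1, stood at 6.15 ± 1.03 CPM with PBS and 9.08 ± 1.23 after EGF with MSK2 siRNA (log2 fold change 0.56 ± 0.17, edgeR adjusted p = 0.167). With control siRNA it stood at 5.60 ± 0.879 and 6.61 ± 0.749 CPM (2-sided exact permutation test between the siRNAs, n = 4 each, p = 0.43 with PBS and p = 0.057 after EGF). After EGF the edgeR estimate was higher with MSK2 siRNA (log2 difference 0.46 ± 0.17 SE, edgeR adjusted p = 0.0358). Over all genes tested, 14.9% were called higher in this way. The libraries overlapped, at 7.295 CPM in the lowest with MSK2 siRNA and 7.422 in the highest with control siRNA. RPS6KA5 was tested (over 10 CPM in 2 or more of all 22 libraries) only through libraries with MSK2 siRNA and EGF. That choice favors a higher value there, so this p-value is a description.

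The 8 libraries held 12236060 to 20986133 counts in genes, and all 8 fibroblast markers were detected, at summed levels of 60400 to 65500 CPM with PBS and 61900 to 74100 CPM with EGF. Epithelial markers summed to 52.6 to 66.1 and 50.5 to 64.2 CPM, endothelial markers to 18.5 to 29.2 and 21.7 to 22.7 CPM, and leukocyte markers to 0.0953 to 0.635 and 0.461 to 1.34 CPM. Of the 10 epithelial markers 1 was at 0 in every PBS library and 2 in every EGF library, and of the 8 leukocyte markers 3 and 2. The first library of each of the 2 groups lay at the edge of its group in the balance of long and short transcripts. In the first PBS library the longest 25% of transcripts were lower against the shortest 25% than in the other PBS libraries (a log2 difference of -0.518 against -0.235 to -0.224), and in the first EGF library they were higher (0.072 against -0.300 to -0.164). Across 9768 genes, the log2 fold change after EGF went up with transcript length (Spearman's rho 0.465 over 8 libraries and 0.049 without the first library of each group), as a description over genes that share these libraries. These 2 libraries were picked by this balance, so the drop in rho follows from the choice. With control siRNA and every library kept, rho was -0.257. The results below are therefore also given without these 2 libraries where that changes a call.

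**Figure D1:**
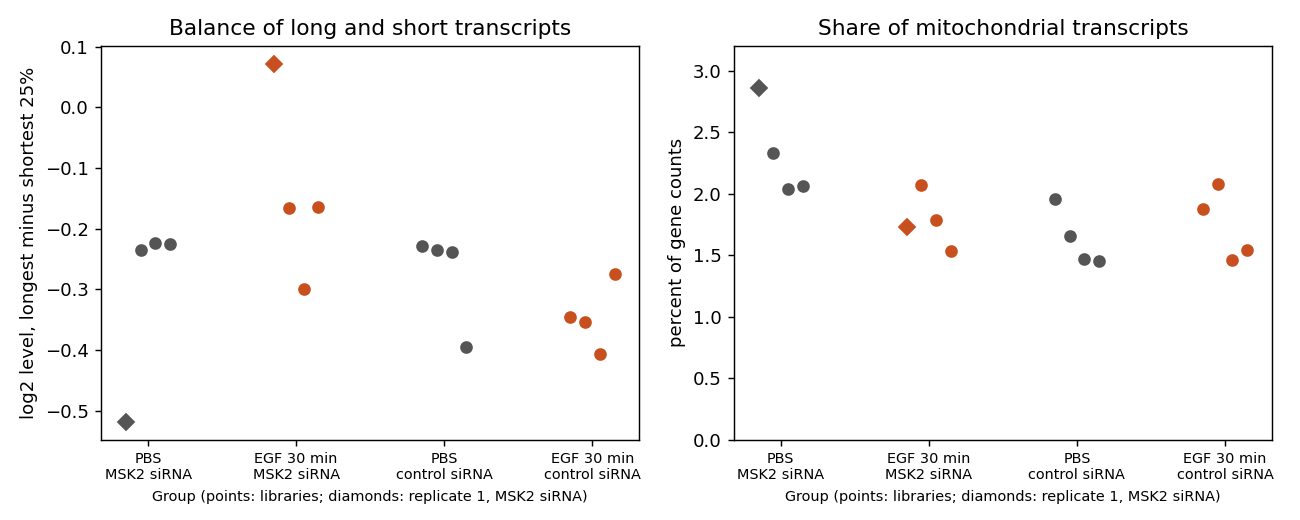
Balance of long and short transcripts (left, log2 level of the longest 25% of transcripts minus the shortest 25%) and percent of gene counts from the mitochondrial genome (right) in the 16 libraries with PBS or 30 min of EGF, 1 point per library, diamonds for the first library of both MSK2 siRNA groups. The diamonds lie at -0.518 and 0.072 on the left, outside the range of the other libraries, and the PBS libraries with MSK2 siRNA hold 2.04 to 2.85% mitochondrial counts on the right.

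After 30 min of EGF, 75 of the 9770 genes tested rose (0.768%) and 1 fell (0.0102%) in cells with MSK2 siRNA (edgeR quasi-likelihood test, Benjamini-Hochberg adjusted p under 0.05 over all genes tested). Before adjustment, a p under 0.05 was reached by 628 genes that were higher (6.43%) and 329 that were lower (3.37%), and these counts moved to 414 and 142 without EGF library 1, 688 and 681 without EGF library 3, and 465 and 544 without PBS library 4. In each of the 75 genes that rose, all 4 EGF libraries lay above all 4 PBS libraries, a separation that 357 genes showed in all (3.65%), with 168 (1.72%) separated the other way. In bulk RNA, a larger rise in some cells and a smaller rise in every cell cannot be told apart. Of the 75, 22 rose by more than 1 on the log2 scale, 29 by 0.5 to 1 and 24 by less than 0.5, with a median of 0.67 against -0.01 over all genes tested. The filter of 10 CPM counted libraries of all 6 groups, and EGR3, DUSP2, NR4A1 and PTGS2 passed it only through libraries of the other groups. With the filter set over the compared groups alone these 4 were not tested, and 68 genes rose. Without the first library of each group, 65 genes rose, of which 59 were among the 75.

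Promoters of 4 of these genes are shown for the motifs through which the pathway acts. A cyclic AMP response element (CRE, TGACGTCA) or its shorter form (TGACG, contained in it) is bound by CREB and ATF1, and the CArG box is bound by SRF. EGR1 and DUSP1 were taken by rule, as the genes among the 10 largest rises whose promoter holds a full CRE or a CArG box, and FOS and SRF were chosen after their values were seen. Each window is the 180 bases before the RefSeq transcription start on GRCh38.p14, 5′ to 3′ on the gene's strand, with matches on either strand in capitals (CGTCA is TGACG on the other strand).
FOS (chr14:75278648-75278827, plus strand): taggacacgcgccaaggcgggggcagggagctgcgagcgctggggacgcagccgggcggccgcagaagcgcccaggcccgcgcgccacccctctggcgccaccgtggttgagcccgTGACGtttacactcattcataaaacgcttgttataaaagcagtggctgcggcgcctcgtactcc
EGR1 (chr5:138465299-138465478, plus strand): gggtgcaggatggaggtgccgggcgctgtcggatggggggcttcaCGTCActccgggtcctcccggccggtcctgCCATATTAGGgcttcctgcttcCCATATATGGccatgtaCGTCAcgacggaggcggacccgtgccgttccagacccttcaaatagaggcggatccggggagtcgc
DUSP1 (chr5:172771196-172771375, minus strand): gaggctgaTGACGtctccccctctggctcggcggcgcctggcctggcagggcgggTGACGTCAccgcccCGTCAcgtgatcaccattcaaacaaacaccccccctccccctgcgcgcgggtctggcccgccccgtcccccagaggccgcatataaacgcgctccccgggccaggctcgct
SRF (chr6:43171089-43171268, plus strand): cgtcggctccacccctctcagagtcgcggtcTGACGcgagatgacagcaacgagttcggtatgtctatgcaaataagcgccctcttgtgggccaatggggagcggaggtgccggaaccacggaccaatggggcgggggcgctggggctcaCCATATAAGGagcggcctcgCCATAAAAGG

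The FOS window held a short CRE at -64, counted from the first base before the start. EGR1 held CArG boxes at -105 and -83 and short CREs at -135 and -66, DUSP1 a full CRE at -125, and SRF CArG boxes at -30 and -10. Over the 250 bases before the start, 61 of the 75 genes and 7995 of the 9770 tested matched a RefSeq promoter by symbol. A full CRE was present in 8.20% of the 61 and 3.21% of the 7995, a short CRE in 39.3% and 31.3%, and a CArG box in 3.28% and 1.08%. The TATA box (TATAAA) was present in 21.3% and 4.89%, and the GC box (GGGCGG) in 77.0% and 69.0%. In the whole table of 27195 promoters these shares were 1.77%, 21.6%, 1.15%, 11.1% and 42.4% in the same order. A match is a string of letters on either strand, and no binding was measured. Sites more than 250 bases before the start were not searched, so no CArG box within it, as in FOS, does not mean that the gene has none.

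Immediate-early transcription factors made up the largest group. Of 33 tested members of a list of 37, 19 rose and none fell, with a median log2 fold change of 0.72. Over all genes tested 0.768% rose and the median was -0.01, the background for this list and those that follow. FOS, the AP-1 subunit and the strongest responder, had 11.4, 10.9, 6.88 and 11.2 CPM in the PBS libraries and 214, 206, 224 and 214 CPM after EGF. Each EGF library was thus far above every PBS library (log2 fold change 4.39 ± 0.13 SE, 21.0-fold, edgeR adjusted p = 6.93e-20). Its partner JUNB had 51.5, 40.0, 42.2 and 42.3 CPM with PBS and 163, 181, 182 and 177 after EGF (2.00 ± 0.10). The groups again did not overlap. JUNB shares exon sequence with HOOK2 in the annotation, so some of its reads may be set aside or miscounted. JUN rose less (0.90 ± 0.11), as did FOSL1 (0.50 ± 0.08), while ATF3, a stress-inducible partner of JUN, went from 7.27 ± 0.213 to 16.04 ± 1.48 CPM (SD, n = 4 each; log2 fold change 1.14).

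The EGR zinc fingers rose together. EGR1 had 114, 104, 93.5 and 72.2 CPM with PBS and 482, 465, 418 and 480 CPM with EGF (log2 fold change 2.27 ± 0.13, edgeR adjusted p = 7.72e-13). EGR2 had 17.6, 14.3, 17.0 and 14.4 CPM with PBS and 69.0, 72.4, 66.2 and 75.5 with EGF (2.17 ± 0.09). In both genes the EGF libraries were far above the PBS range. EGR3 had 1.42 to 3.34 CPM before and 7.50 to 8.27 CPM after (1.82 ± 0.22), below 10 CPM in every library compared. NAB2, the corepressor that binds EGR1 and limits it, rose from 51.3 ± 3.55 to 66.4 ± 3.08 CPM (0.37 ± 0.09, edgeR adjusted p = 0.0478). This call was lost without the first libraries, and also when any 1 of the 8 libraries compared was left out.

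Of the Krüppel-like factors in the list, 4 passed the threshold. KLF2, known from quiescent and flow-exposed cells, had 16.1, 12.9, 12.9 and 7.90 CPM with PBS and 54.3, 57.8, 55.8 and 55.9 CPM after EGF (2.19 ± 0.14). The spread of its PBS libraries was wide but the groups stayed apart. KLF6 rose from 200 ± 3.60 to 378 ± 23.6 CPM (0.92 ± 0.06), KLF10, a repressor first known as a TGF-beta early gene, from 179 ± 16.9 to 300.5 ± 5.51 CPM (0.75 ± 0.07), and KLF4 from 14.6 ± 1.32 to 24.99 ± 0.772 CPM (0.78 ± 0.15, edgeR adjusted p = 0.00312). The call of KLF4 was lost without the first libraries. The orphan nuclear receptor NR4A1 had 2.47, 2.698, 3.31 and 2.41 CPM with PBS and 10.5, 8.68, 8.56 and 9.42 CPM with EGF (1.79 ± 0.20). Its counts were low, with 1 of the 8 libraries above 10 CPM. The list also held IER2 (1.74 ± 0.11), CSRNP1 (1.11 ± 0.09), the clock-linked repressor BHLHE40 (0.84 ± 0.09) and the E-cadherin repressor SNAI1 (0.73 ± 0.17). The call of SNAI1 (edgeR adjusted p = 0.0345) was lost without PBS library 2, 3 or 4 or EGF library 2, 3 or 4.

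SRF itself also rose. It had 7.11, 6.53, 6.96 and 5.97 CPM in the PBS libraries and 12.2, 12.2, 9.75 and 9.67 CPM in the EGF libraries (log2 fold change 0.73 ± 0.12, edgeR adjusted p = 0.000767). The groups did not overlap, although the EGF libraries fell into a higher and a lower pair. With control siRNA, SRF stood at 20.2 ± 1.92 CPM with PBS and 24.2 ± 0.399 after EGF, so each of the 8 libraries with MSK2 siRNA was below each of the 8 with control siRNA. In a list of 25 genes, actin cytoskeleton genes that SRF regulates and SRF itself, SRF was the only one that rose. The list median was 0.01, and 0.768% of all genes tested rose. With PBS and no EGF, 19 of the 25 were lower with MSK2 siRNA than with control siRNA and 3 higher (edgeR adjusted p under 0.05). Of all genes tested, 12.6% were lower and 12.2% higher. FLNA, a crosslinker of actin filaments in that list, had 979 ± 157 CPM with PBS and 1249 ± 178 CPM with EGF (adjusted p = 0.487).

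**Figure D2:**
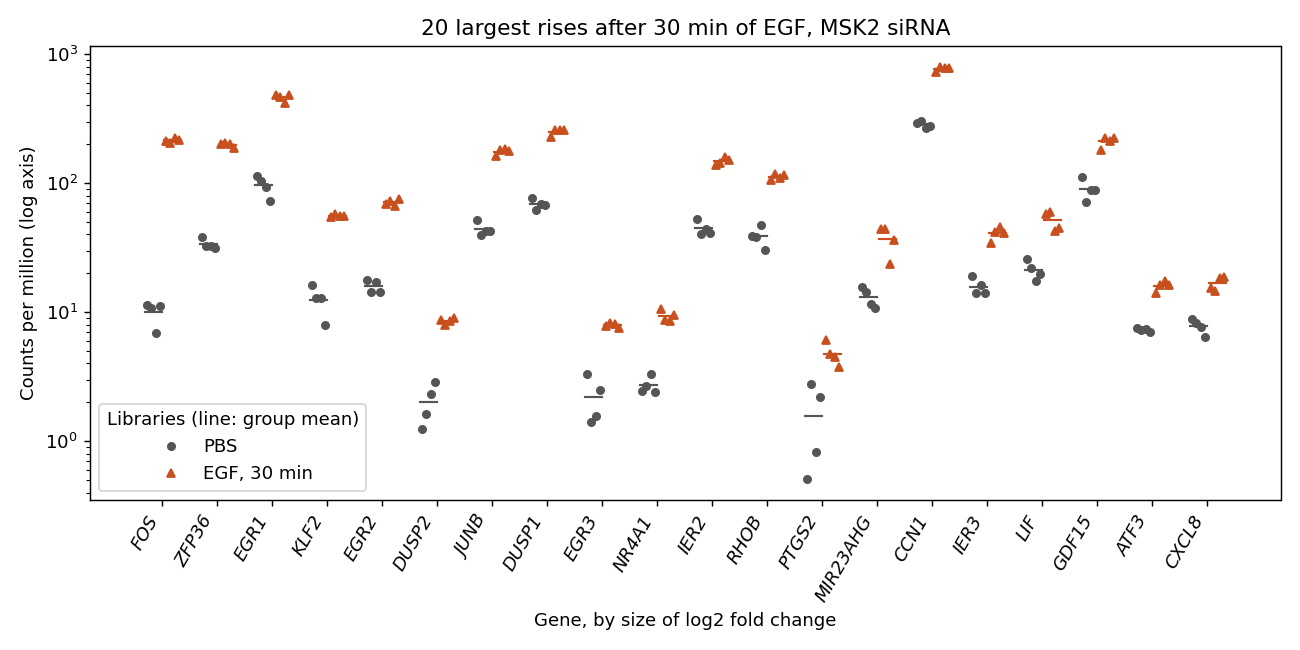
CPM (log axis) of the 20 genes with the largest rise after 30 min of EGF in cells with MSK2 siRNA, 1 symbol per library (circles, PBS; triangles, EGF) and a line at each group mean. In every gene the 4 EGF libraries lie above the 4 PBS libraries, from 206 to 224 against 6.88 to 11.4 CPM for FOS.

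Negative feedback regulators formed the second group, with 11 of 28 tested members rising, none falling and a median log2 fold change of 0.24. DUSP1, a nuclear phosphatase of ERK, p38 and JNK, had 77.0, 61.7, 68.3 and 67.8 CPM with PBS and 229, 256, 256 and 256 CPM after EGF (1.86 ± 0.08, edgeR adjusted p = 7.33e-16). All EGF libraries lay far above the PBS range. The related DUSP2 had 1.23, 1.63, 2.32 and 2.89 CPM before and 8.62, 8.004, 8.49 and 9.05 CPM after (2.04 ± 0.20). This gene was barely detected without EGF, at 17 reads in its lowest library, and no library compared reached 10 CPM. DUSP5, a nuclear phosphatase of ERK, went from 27.0 ± 4.39 to 46.0 ± 4.29 CPM (0.77 ± 0.14), and its cytoplasmic counterpart DUSP6 from 65.7 ± 6.41 to 94.5 ± 10.1 CPM (0.52 ± 0.09).

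Feedback at other levels of the pathway moved with them. SPRY2 and SPRY4, inhibitors of signaling between receptor and RAF, rose by 0.88 ± 0.08 and 0.96 ± 0.14 on the log2 scale. SOCS3 and CISH, inhibitors of cytokine receptor signaling, rose by 1.02 ± 0.11 and 0.83 ± 0.15. IER3 had 18.9, 14.1, 16.2 and 13.96 CPM before and 34.5, 42.0, 45.6 and 41.3 CPM after EGF (1.37 ± 0.13). It is counted in this list although it prolongs ERK activity by acting on a phosphatase. The pseudokinase TRIB1 (0.75 ± 0.09) and PHLDA1 (0.47 ± 0.07) completed the list. ERRFI1, which binds and inhibits the EGF receptor, had 74.96 ± 9.52 CPM with PBS and 90.1 ± 7.20 CPM with EGF and did not pass the threshold (0.26 ± 0.10, edgeR adjusted p = 0.414). At 60 min it stood at 258 CPM.

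Genes of mRNA decay followed, with 6 of 19 tested members rising and a median of 0.32. ZFP36, which binds AU-rich elements and brings the transcripts of cytokines and immediate-early genes to decay, had 38.0, 32.5, 32.8 and 31.2 CPM with PBS and 201, 204, 201 and 188 CPM after EGF (2.56 ± 0.10, edgeR adjusted p = 3.49e-17). Among the 75 genes only FOS had a larger fold change. Its paralogs ZFP36L1 and ZFP36L2 rose by 0.67 ± 0.09 and 0.41 ± 0.09. BTG2 and TOB1, which recruit the CCR4-NOT deadenylase, rose by 0.45 ± 0.09 and 0.46 ± 0.10, and ZC3H12A, an endonuclease of cytokine mRNAs, by 0.53 ± 0.11. The calls of ZFP36L2 and TOB1 were lost without the first libraries. With 1 library left out, the call of ZFP36L2 was lost without PBS library 2 or 4 or EGF library 1, 2 or 4. The call of TOB1 was lost without PBS library 1 or 4 or EGF library 2 or 3. That of ZC3H12A was lost without PBS library 2 or 3 or EGF library 2, 3 or 4.

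Secreted growth factors and cytokines had 6 of 18 tested members that rose (median 0.34), and 12 of the 30 in the list were too low to test. CCN1, a matricellular protein, had 293, 302, 266 and 279 CPM before and 724, 800, 782 and 783 CPM after EGF (1.44 ± 0.08, edgeR adjusted p = 5.93e-14). LIF, a cytokine of the interleukin-6 family, had 25.8, 22.1, 17.5 and 19.9 CPM before and 58.1, 60.0, 42.9 and 44.6 CPM after (1.27 ± 0.13). The EGF libraries of LIF split into 2 pairs, both above PBS. GDF15 rose from 89.7 ± 16.5 to 211 ± 21.6 CPM (1.23 ± 0.11), the chemokine CXCL8 from 7.79 ± 1.01 to 16.8 ± 2.12 CPM (1.12 ± 0.18), and CCN2, a matrix protein related to CCN1, by 0.50 ± 0.08. VEGFA, the angiogenic factor, rose by 0.46 ± 0.10. This call was lost without the first libraries, and also without PBS library 4 alone or EGF library 1 or 2 alone.

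CCN1 and CCN2 also belong to the targets of YAP and TEAD, of which 5 of 20 tested rose (median 0.17). The other 3 were NUAK2, a kinase of the AMPK family (0.95 ± 0.11), F3, the coagulation initiator tissue factor (0.44 ± 0.06), and AMOTL2, which binds and restrains YAP (0.35 ± 0.07). Of 16 NF-kB targets 2 rose, CXCL8 and NFKBIZ, a nuclear IkB protein (0.94 ± 0.11). Of 24 p53 targets 3 rose, among them GDF15 and PMAIP1, the BH3-only protein NOXA (0.61 ± 0.10). PPP1R15A, which directs the phosphatase of eIF2alpha (0.67 ± 0.08), and DDIT3, the factor CHOP (0.43 ± 0.11, edgeR adjusted p = 0.0491), were the 2 of 18 stress response genes that rose. The call of DDIT3 was lost without PBS library 1, 2, 3 or 4 or EGF library 2, 3 or 4.

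Outside the lists, RHOB, a small GTPase with an immediate-early gene, had 39.3, 38.6, 47.1 and 30.4 CPM with PBS and 106, 119, 110 and 115 CPM with EGF (1.54 ± 0.12). MIR23AHG, the host transcript of a microRNA cluster, had 15.8, 14.2, 11.5 and 10.7 CPM before and 44.2, 44.05, 23.6 and 36.3 CPM after (1.51 ± 0.20). One EGF library was well below the others. PTGS2, the inducible cyclooxygenase, had 0.508, 2.77, 0.8287 and 2.21 CPM before and 6.03, 4.78, 4.51 and 3.78 CPM after (1.53 ± 0.28), with 7 reads in the lowest library and none of the 8 above 10 CPM.

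Targets of CREB and its coactivators were described as a list because MSK2 is a CREB kinase. Of 16 tested members 6 rose, none fell, and the median was 0.39 with MSK2 siRNA and 0.31 with control siRNA, where 6 rose as well. Over all genes tested, 0.768% rose with MSK2 siRNA and 0.614% with control siRNA. The 6 were FOS, EGR1, JUNB, DUSP1, NR4A1 and ATF3, which the lists above also hold.

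**Figure D3:**
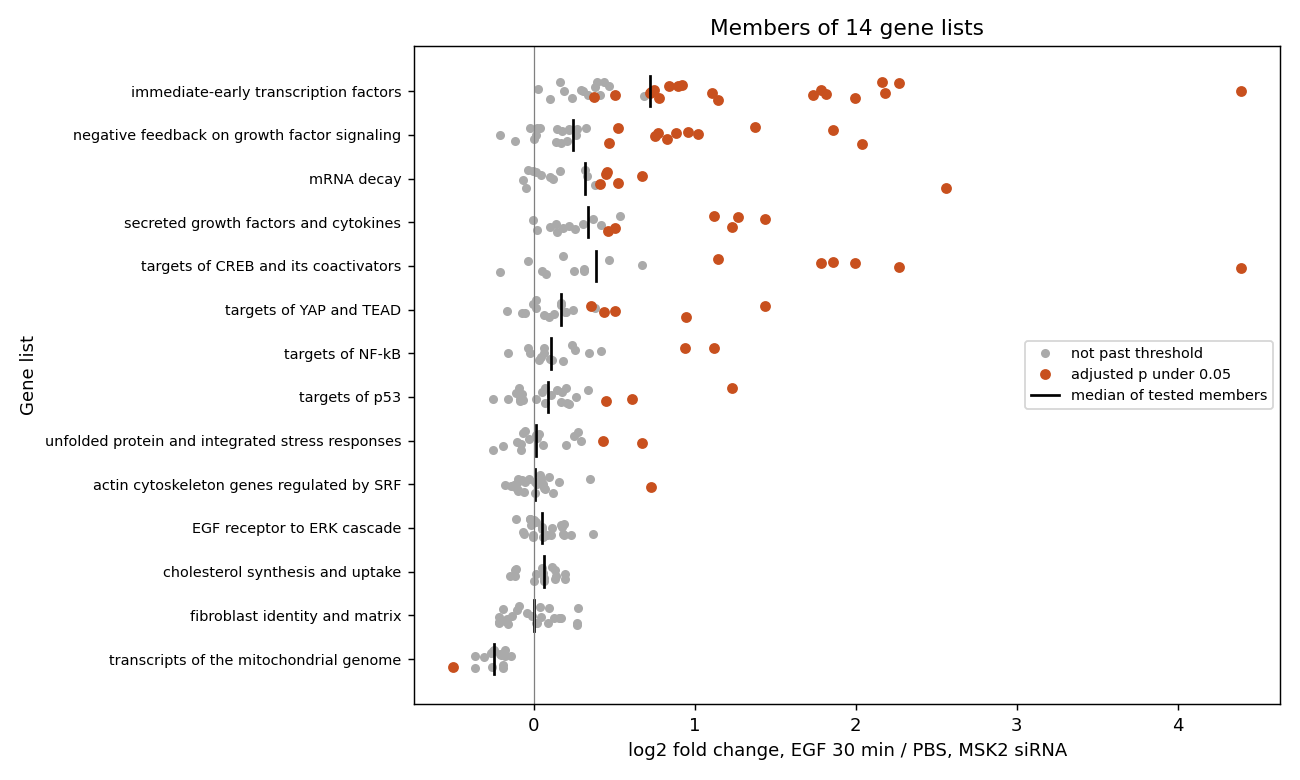
Log2 fold change after 30 min of EGF in cells with MSK2 siRNA for the tested members of 14 gene lists, 1 point per gene, colored where the adjusted p was under 0.05, with a bar at each list's median. Immediate-early transcription factors lie furthest to the right, with a median of 0.72, and the mitochondrial transcripts are all below 0, with a median of -0.25.

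Several lists had no call. Over all genes tested 0.768% rose and 0.0102% fell, so no call in lists this small is near the background share. No gene among 24 of the EGF receptor to ERK cascade changed past the threshold (median log2 fold change 0.05), nor among 5 MSK and RSK kinases (0.19), 16 genes of cholesterol synthesis and uptake (0.06), 16 interferon-stimulated genes (-0.09), 9 genes of S phase and mitosis (-0.03), 24 genes of fibroblast identity and matrix (0.00) and 17 genes of H3K9 methylation and the nuclear lamina (0.07). Neither did 3 epithelial markers and 1 endothelial marker with enough reads to test, and no leukocyte marker could be tested. The mesenchymal intermediate filament gene VIM had 911 ± 59.4 and 784 ± 80.6 CPM (-0.22 ± 0.09, adjusted p = 0.418).

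The 1 gene that fell was MT-RNR2, the 16S ribosomal RNA of the mitochondrion. It had 18070, 14240, 12850 and 14330 CPM with PBS and 10420, 11710, 10940 and 9053 CPM with EGF (-0.50 ± 0.12, edgeR adjusted p = 0.0422). The groups did not overlap, but the first PBS library was the highest by a wide margin. All 15 tested transcripts of the mitochondrial genome were lower by sign after EGF, with a median of -0.25, while with control siRNA the median was 0.15. Their share of gene counts was 2.04 to 2.85% in the PBS libraries and 1.54 to 2.07% in the EGF libraries. The call was lost without the first library of each group (-0.38, edgeR adjusted p = 0.459), and also with the transcript length trend of each library taken into the fit (-0.42, adjusted p = 0.11).

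With control siRNA, 60 genes rose after 30 min of EGF (0.614% of 9770) and 0 fell past the threshold in edgeR (206 at an unadjusted p under 0.05, and 2 by DESeq2). These libraries are all different from those with MSK2 siRNA. The calls shared 52 genes, 69.3% of the 75 and 86.7% of the 60. All 75 genes were higher by sign with control siRNA, and in 63 of them the control libraries did not overlap, a separation seen in 211 genes (2.16%) with control siRNA. Over the 52 genes, the median log2 fold change was 0.91 with MSK2 siRNA and 0.78 with control siRNA, and the response was larger with MSK2 siRNA in 35 and smaller in 17.

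The difference between the 2 responses was tested in the same fit. No gene of 9770 passed the threshold in edgeR or in DESeq2 (smallest edgeR adjusted p = 0.713), and at an unadjusted p under 0.05, 366 genes (3.75%) responded more and 295 (3.02%) less with MSK2 siRNA by edgeR. Without EGF library 1 of MSK2 siRNA these counts were 193 and 142, without its PBS library 4 they were 306 and 525, without PBS library 4 of control siRNA 751 and 419, and with the trend in transcript length as an offset 210 and 215. Over the 52 genes the estimated differences ran from -0.40 to 0.42 on the log2 scale. FOS had 11.5 ± 1.42 CPM with control siRNA and PBS and 185 ± 19.3 after EGF, a log2 fold change of 4.01 against 4.39 with MSK2 siRNA (difference 0.39, 95% interval 0.03 to 0.74). For EGR1 the difference was 0.27 (-0.10 to 0.64), for DUSP1 0.11 (-0.12 to 0.34), for ZFP36 0.06 (-0.22 to 0.33), and for KLF2 -0.40 (-0.82 to 0.02). Each of these 4 intervals includes 0, and KLF2 had the one that reached furthest below it.

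**Figure D4:**
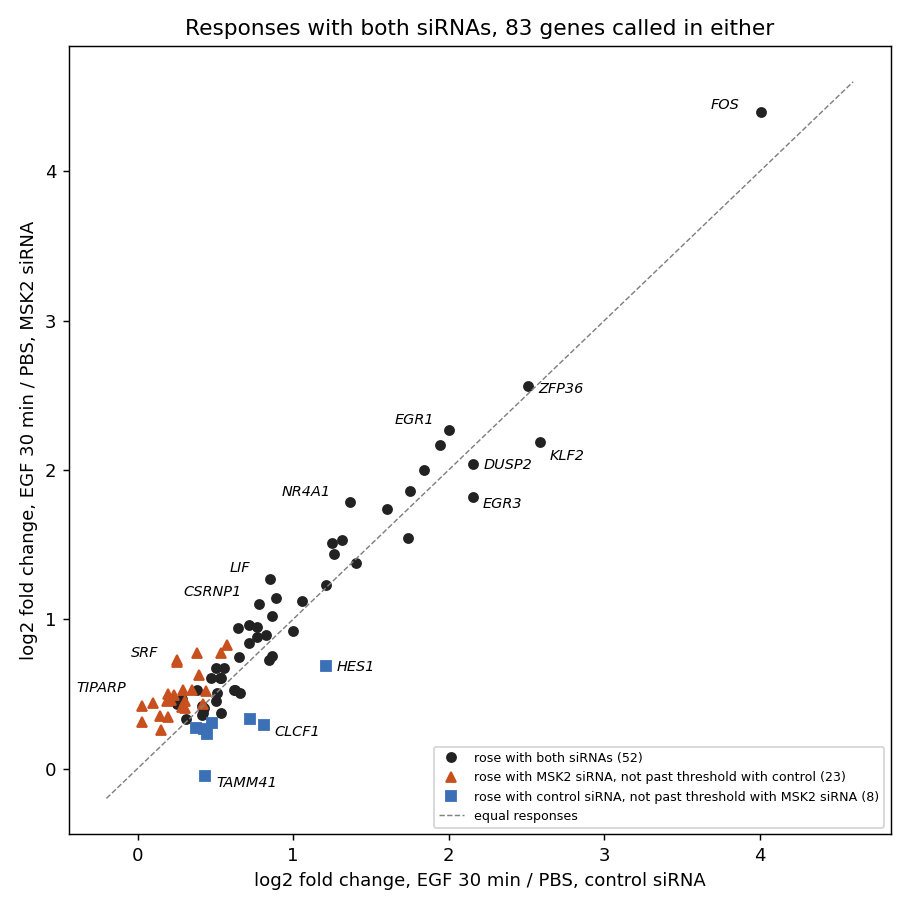
Log2 fold change after 30 min of EGF with MSK2 siRNA (vertical) against control siRNA (horizontal) for the 83 genes that rose in either, 1 symbol per gene, with a dashed line of equal responses. FOS lies furthest out, at 4.39 and 4.01, and TAMM41 is the 1 gene below 0 on the vertical axis, at -0.05.

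Among the 75 genes, which were chosen by their rise with MSK2 siRNA, 58 had the larger estimate with MSK2 siRNA, against 4864 of all 9770 (49.8%). Among the 60 genes called with control siRNA, 25 had the smaller estimate with MSK2 siRNA. Of the 75, 9 had an unadjusted p under 0.05 for the difference, all higher with MSK2 siRNA and none past adjustment. Over all genes tested, 3.75% were higher and 3.02% lower at that p. The 75 were picked with libraries that enter the difference, so a lean to the higher side is built in, and the intervals below are descriptions. The 9 genes are named next. They were FOS, LIF, CSRNP1, SRF, TIPARP, ZBTB34, TEF, TNFRSF11B and AMOTL2. For SRF the difference was 0.47 (0.13 to 0.81), as its log2 fold change with control siRNA was 0.26 ± 0.11. TIPARP, a mono-ADP-ribosyltransferase induced by the aryl hydrocarbon receptor, had 57.7, 63.6, 51.5 and 46.2 CPM with MSK2 siRNA and PBS and 74.6, 72.8, 73.1 and 71.4 CPM after EGF. With control siRNA it stood at 52.05 ± 3.01 and 53.04 ± 1.91 CPM, and the difference was 0.39 (0.14 to 0.64, edgeR adjusted p = 0.713). TNFRSF11B, the decoy receptor osteoprotegerin, rose by 0.31 ± 0.08 with MSK2 siRNA and had a log2 fold change of 0.03 ± 0.08 with control siRNA (difference 0.29, 0.06 to 0.51). The rises of TNFRSF11B, TEF and ZBTB34 with MSK2 siRNA were no longer called without the first libraries. With 1 library left out, TNFRSF11B was lost without PBS library 1, 2 or 3 or any EGF library. TEF was lost without PBS library 1, 3 or 4 or any EGF library. ZBTB34 was lost without PBS library 2, 3 or 4 or EGF library 1, 2 or 4, and TIPARP without PBS library 4. Of the 23 genes called with MSK2 siRNA and not with control siRNA, all were higher by sign with control siRNA, and in 11 the control libraries did not overlap.

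In the other direction, 8 genes were called with control siRNA and not with MSK2 siRNA. That choice favors negative differences in the same libraries, so their intervals are descriptions too. HES1, a repressor of the Notch pathway, went from 3.55 ± 0.462 to 8.04 ± 2.13 CPM with control siRNA (1.21 ± 0.19). With MSK2 siRNA it had 7.98, 6.32, 4.81 and 6.36 CPM before and 8.38, 12.6, 9.16 and 11.0 CPM after EGF (0.69 ± 0.17, edgeR adjusted p = 0.0558). Its libraries did not overlap there either, and it passed the threshold without the first libraries (0.90, edgeR adjusted p = 0.0167). The difference was -0.52 (-1.05 to 0.005). PRDM1, the repressor BLIMP1, had log2 fold changes of 0.34 ± 0.13 with MSK2 siRNA and 0.72 ± 0.13 with control siRNA (difference -0.38, -0.75 to -0.02), and the cytokine gene CLCF1 0.29 ± 0.18 and 0.81 ± 0.19 (-0.52, -1.05 to 0.008). TAMM41, a mitochondrial enzyme of cardiolipin synthesis, had 20.6, 21.1, 18.6 and 17.7 CPM before and 17.7, 19.5, 18.5 and 19.6 CPM after EGF with MSK2 siRNA, where the groups overlapped. With control siRNA it rose from 16.7 ± 0.849 to 22.7 ± 1.57 CPM (difference -0.48, -0.77 to -0.19, edgeR adjusted p = 0.713). The remaining 4 were ITPRIP, RBAK, ERRFI1 and MAFG, with log2 fold changes of 0.23 to 0.31 with MSK2 siRNA and 0.37 to 0.48 with control siRNA.

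None of the 10 genes with the smallest p for the difference belonged to the list of immediate-early transcription factors. That list holds 33 of the 9770 genes tested, so none among 10 is near its share. ATP8B2, a phospholipid flippase, had 78.2, 85.4, 81.0 and 73.8 CPM before and 107, 100, 97.1 and 102 CPM after EGF with MSK2 siRNA, and 73.7 ± 12.5 and 66.7 ± 3.18 CPM with control siRNA (difference 0.51, 0.24 to 0.77, unadjusted p = 0.000579 and adjusted p = 0.713 in edgeR). HERC1, a giant ubiquitin ligase, differed by 0.80 (0.37 to 1.23) and the lipid transporter ABCA2 by 1.05 (0.45 to 1.65). All 4 libraries of one treatment lay above the other in opposite directions with the 2 siRNAs in 3 genes, of which SYNRG and EAPP are among the 10 with the smallest p. SYNRG had 71.8 ± 3.45 and 85.3 ± 9.02 CPM with MSK2 siRNA and 61.9 ± 3.28 and 53.8 ± 6.14 CPM with control siRNA, and EAPP 80.8 ± 2.49 and 71.9 ± 4.62 CPM against 60.5 ± 5.22 and 69.8 ± 1.09 CPM. The median difference over all genes was -0.134 in the shortest 25% of transcripts and 0.097 in the longest 25%, and its part in these values was not tested gene by gene. Without the last PBS library of control siRNA, the shallowest of all 22 at 7893209 counts, 18 genes passed the threshold for the difference, HERC1, ABCA2 and ATP8B2 among them.

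The study sorted genes that EGF raised at 60 min into MSK2 dependent and MSK2 independent classes, using its 60 min libraries of both siRNAs and the PBS libraries of control siRNA. The PBS libraries are shared with the control siRNA response counted here, so the classes are no independent evidence of it. At 30 min with MSK2 siRNA, 12 of the 59 MSK2 dependent genes rose (median 0.18), against 9 with control siRNA (median 0.16). Of the 228 MSK2 independent genes, 60 rose with MSK2 siRNA (median 0.26) and 49 with control siRNA (median 0.21). The median difference between the responses was 0.04 in the first class and 0.05 in the second. Over all genes tested, 0.768% rose with MSK2 siRNA and 0.614% with control siRNA. With PBS and no EGF, 44 of the 59 were lower with MSK2 siRNA than with control siRNA and 0 higher (edgeR adjusted p under 0.05). Of the 228, 27 were lower and 38 higher, and of all genes tested 12.6% and 12.2%. CCN1, DUSP2, PTGS2, NUAK2, SRF and F3 were among the 12 MSK2 dependent genes that rose. F3 had 120, 122, 119 and 137 CPM with MSK2 siRNA and PBS and 176, 169, 162 and 171 CPM after EGF, while with control siRNA it stood at 479 ± 29.0 and 579 ± 28.3 CPM. Even after EGF, every MSK2 siRNA library was below every PBS library with control siRNA. CCN1 had 285 ± 15.8 and 772 ± 33.2 CPM with MSK2 siRNA against 590 ± 85.8 and 1413 ± 71.8 CPM with control siRNA, and its EGF libraries with MSK2 siRNA lay above every PBS library with control siRNA.

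With MSK2 siRNA, the mean at 60 min of EGF was above that at 30 min in 68 of the 75 genes and below it in 7, while over all genes tested it was above in 4641 (47.5%). In 56 of the 75, and in 485 of all genes tested (4.96%), all 3 libraries at 60 min lay above all 4 at 30 min. These values share the PBS and 30 min libraries with the comparison above and are given as levels. NR4A1 stood at 9.29 ± 0.889 CPM at 30 min and 45.8 ± 7.92 CPM at 60 min, ATF3 at 16.04 and 49.1 CPM, KLF10 at 300.5 and 703 CPM, and CSRNP1 at 53.8 and 149 CPM. FOS and ZFP36, which had the largest rises at 30 min, went the other way. FOS had 39.2, 56.0 and 52.7 CPM at 60 min against 206 to 224 CPM at 30 min, and ZFP36 had 123, 140 and 110 CPM against 188 to 204 CPM. Every library at 60 min was lower than every library at 30 min in both, and all were still above PBS. MIR23AHG, RUSC2, TOB1, LRIG3 and TEF were the other 5 with a lower mean at 60 min.

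**Figure D5:**
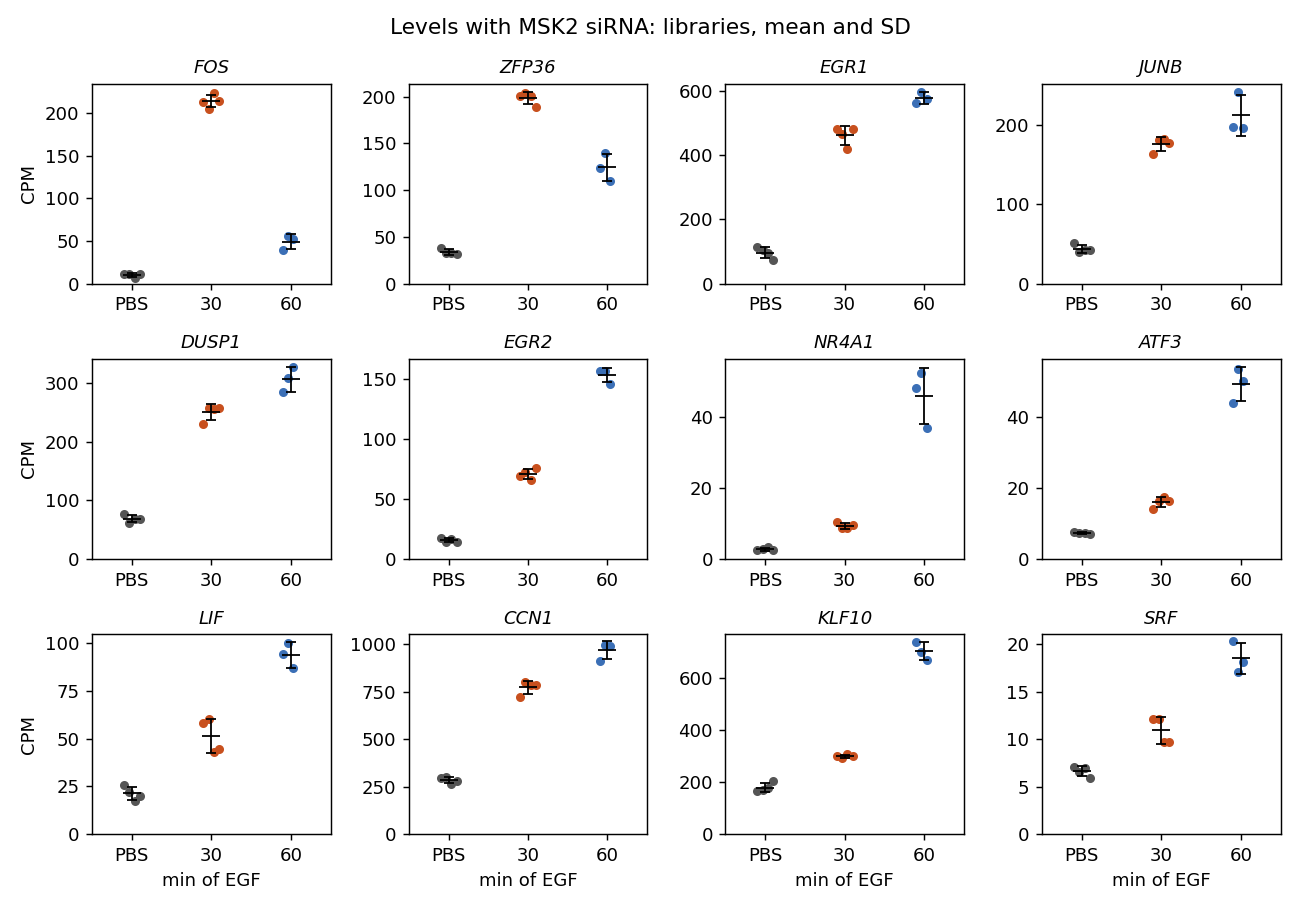
CPM of 12 genes in cells with MSK2 siRNA given PBS or EGF for 30 or 60 min, 1 point per library (4, 4 and 3), with the group mean and SD. FOS and ZFP36 are highest at 30 min, at 214 and 198 CPM, and the other 10 are highest at 60 min.

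The genes that rose were compact. Their median span in the GENCODE v44 annotation on GRCh38 was 7172 bases with 4 exons, against 35890 bases and 9 exons over the genes tested, and their median transcript length was 2820 against 3470 bases. With all genes split by transcript length into 4 bins of equal size, 20, 31, 21 and 3 of the 75 fell in the bins from shortest to longest. FOS spans 3405 bases on chromosome 14 in 4 exons, EGR1 3825 bases on chromosome 5 in 2, ZFP36 2566 bases on chromosome 19 in 2, and JUNB 1830 bases on chromosome 19 in 1. In 33 of the 75 an exon overlaps one of another annotated gene, NR4A1 (NR4A1AS) and LIF (LIF-AS1 and LIF-AS2) among them, and without strand their reads cannot be told apart. The share over all genes tested was not counted. The overlap is therefore given as a limit on these counts and not as a trait of the genes that rose.

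The threshold cut through a continuous range. Just inside it lay DDIT3 (edgeR adjusted p = 0.0491, log2 fold change 0.43) and TNFRSF11B (0.0492, 0.31), and just outside lay ABL2 (0.0515, 0.54). In ABL2 as well, the mean was higher after EGF, at 24.5 ± 3.90 CPM against 16.9 ± 1.36 CPM with PBS.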

How the data were processed

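RNA of IMR90 cells was converted to cDNA with SMART-Seq v4 and made into Nextera XT libraries, which carry no strand. Per the labels and methods, the authors used bcl2fastq 2.20.0.422, STAR 2.7.9a with hg38 and HTSeq 0.13.5, and the deposited values are whole-number counts per gene, not normalized. Which annotation release and strand option were used in counting is not given in the sources used here. The authors' own test was the exact test of edgeR.

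Here the 5 summary lines of each file, 19.65 to 21.53% of reads in the 8 libraries compared, were left out. A gene was tested if over 10 CPM in 2 or more of all 22 libraries (9770 genes), with edgeR 4.0.16 in R 4.3.3 (TMM, 6 group means in 1 model, quasi-likelihood, Benjamini-Hochberg over all 9770). CPM values are TMM-scaled, and log2 fold changes with SE and 95% intervals come from the model. The common biological coefficient of variation was 10.5%. Scripts were tested on simulated counts. Replicates differed by more than sampling noise (chi-square per degree of freedom 4.82 to 19.7 over 12 pairs of libraries).

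The comparison, gene lists and alternatives were chosen with earlier results of these data known. Named genes were the 20 largest rises, falls past the threshold, called list members (otherwise up to 4 per list by p), the 10 smallest p for the difference between the siRNAs, up to 10 genes called with 1 siRNA and not the other in each direction, RPS6KA4, RPS6KA5, and 2 genes on each side of the threshold. Some of the genes this rule picks are not reported here. Alternatives were edgeR's exact test, DESeq2 1.42.0 and its size factors, library sizes only, other filters, the compared groups alone, a replicate block, a minimum log2 fold change of 0.5, and each library left out. Leaving out the first library of both groups and a lowess trend on transcript length as an offset were chosen after seeing the data. Promoters are from RefSeq (GRCh38.p14).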

Additional observations from a re-analysis of the deposited data

Results flagged for a closer look

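In 200 groups of 4 libraries checked for the genes named above and the balance of transcript lengths, 13 held a library far from the other 3 by Dixon's criterion (a gap that takes up most of the group's range), and chance alone gives about 5%. Among them was the first PBS library with MSK2 siRNA, in which the longest 25% of transcripts differed from the shortest 25% by a log2 difference of -0.518. The first EGF library with MSK2 siRNA did not meet the criterion for this balance.

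Among PBS libraries with MSK2 siRNA, the third was low for FOS (6.88 CPM) and high for MAFG (43.8 CPM), the fourth low for CSRNP1 (21.3 CPM), and the first high for SOCS3 (34.6 CPM). Among EGF libraries with MSK2 siRNA, the first was low for DUSP1 (229 CPM), and the third low for ZFP36L2 (252.9 CPM) and AMOTL2 (150.6 CPM). With control siRNA, the first PBS library was low for TIPARP (47.6 CPM) and high for TEF (18.8 CPM), while after EGF the third was high for CSRNP1 (62.4 CPM) and low for TIPARP (50.2 CPM), and the second was high for ZBTB34 (17.6 CPM).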

How the results depend on the processing

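The 75 rises became 110 with edgeR's exact test, 109 with DESeq2 and 143 with no filter on low counts. They were 51 with a log2 fold change over 0.5, and 41 of the 75 were called in every setting run other than that cutoff. Leaving out 1 library gave 54 to 73, and of the 75 from 8 (without PBS library 1) to 21 (without EGF library 2) were then no longer called. The length trend as an offset gave 80, with 71 of the 75. The lower genes, 1 in the main comparison, numbered 2 by the exact test, 3 by DESeq2, 5 without a filter, 0 with the cutoff of 0.5, and 0 to 1 without 1 library. MT-RNR2 was no longer called without PBS library 1, 2 or 4 or EGF library 1, 3 or 4. With control siRNA, the 0 lower genes became 2 by the exact test, 2 by DESeq2, 10 without a filter, 1 with the length trend, and 0 to 5 without 1 library. The 0 differences between responses became 39 without a filter and 0 to 18 without 1 library, 18 without PBS library 4 of control siRNA. The causes were not tested.

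Same-numbered libraries of the compared groups correlated at -0.344, -0.0679, -0.12 and -0.215, and 0 of 4 did best with its own number, so the numbers were not used as pairs. With control siRNA the correlations were 0.176, 2.76e-05, 0.163 and 0.414, not all above 0.1, and the numbers were not used as pairs there either. With the replicate block the count of rises was 96 in a fit of all 22 libraries and 49 in a fit of the compared groups, with 3 and 1 lower genes. With control siRNA 1 gene was lower under the replicate block over all 22 libraries. The differences stayed at 0 in both fits.

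The direction reversed for TAMM41 with MSK2 siRNA (0.01 without the first libraries, 0.04 with the length trend) and RPS6KA4 (-0.02 without PBS library 3, -0.07 without PBS library 4, and up to 0.36 without PBS library 1), neither of them called. With 21 to 52 reads of RPS6KA4 per PBS library with MSK2 siRNA, small changes of the target were not detectable at this depth. Counting intervals cover counting error only.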
